A study of Mus musculus with 56 samples.

Results

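Cadherins are the adhesion receptors of adherens junctions, and 5 of them are described here in mammary tumour cells of 7 β-catenin genotypes with and without TGFb. The 5 genes were taken by symbol through their Entrez identifiers and are Cdh1 (12550), Cdh2 (12558), Cdh3 (12560), Cdh11 (12552) and Cdh13 (12554). All 5 were among the 20314 genes of the deposited values. A filter on low values kept 13754 genes for testing, those that reached 1 CPM in 2 samples or more, and 4 of the 5 passed it. Cdh11 reached 1 CPM in 1 of the 56 samples and was left out.

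Classical cadherins join neighbouring cells through their extracellular part and bind β-catenin and p120-catenin with their cytoplasmic tail, which links the junction to actin. Epithelial cells of the mammary gland hold E-cadherin, the product of Cdh1, and the basal layer also holds P-cadherin, the product of Cdh3. In an epithelial-mesenchymal transition, which TGFb can set off, cells may lose E-cadherin and gain N-cadherin, the product of Cdh2, and this exchange is known as the cadherin switch.

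The cells were lines from MMTV-PyMT mammary tumours of FVB/N mice, in which the MMTV promoter drives the polyoma middle T oncogene in mammary epithelium. The genotypes were fl/fl, with floxed β-catenin alleles, D164A/fl, ΔC/fl and dm/fl, each with a mutant allele beside a floxed one, and D164A/-, ΔC/- and dm/-, in which the floxed allele had been deleted. The D164A mutation removes the binding of Bcl9 and Bcl9L, and the labels spell out neither dm nor ΔC. Deletion used an adenovirus carrying Cre and GFP followed by sorting for GFP, with a virus for GFP alone as control, and the labels do not say which virus, if any, the floxed lines sequenced had received. Fibroblasts had been removed by differential trypsinisation. In 1 experiment cells received TGFb at 2 ng/ml for 4 days or were left untreated, and in the other they received Wnt3a at 100 ng/ml for 3 days or were left untreated. The labels describe these treatments for lines of other genotypes, named by Pygo2 alleles, and the β-catenin genotypes of the samples were used here. This gives 28 conditions with 2 replicates each. The study names 2 fl/fl lines, but the labels do not give the line of a sample, so a genotype and a line cannot be told apart.

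RNA sequencing assigned 22.4 to 33.7 M reads per sample to genes, with a median of 26.8 M. Levels are normalised read counts in CPM, the counts per M reads of an effective library size. A single read equalled 0.0306 to 0.0486 CPM, and 3 reads, the smallest level counted as detected, equalled 0.0917 to 0.146 CPM, limits that cover counting error only. Log2 fold changes are differences of log2(CPM + 1) from limma, which understate changes below about 1 CPM. A gene is called changed when its Benjamini-Hochberg adjusted p over all 13754 genes does not exceed 0.05 and its log2 fold change is 1 or more in size. Errors of fold changes are standard errors (SE) from limma with 2 replicates per condition, and errors of levels are SD. Each SE rests on 1 spread per gene shared by all 28 conditions, not on the replicates compared alone. A gene therefore has the same SE where its replicates agree and where they part.

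β-catenin itself, encoded by Ctnnb1, was read in every genotype. Its mean level in untreated cells of both experiments was 962 CPM in fl/fl, 765 CPM in D164A/fl, 850 CPM in D164A/-, 1383 CPM in ΔC/fl, 1738 CPM in ΔC/-, 1134 CPM in dm/fl and 765 CPM in dm/- cells (n = 4). Reads counted over the whole gene cannot show the deleted allele or the mutations. Ctnnb1 was called in 0 of 7 TGFb responses by limma, with log2 fold changes from -0.53 to 0.46, an unadjusted p under 0.05 in 1 of them and 0 calls by edgeR.

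Some known TGFb targets were called higher in each of the 7 genotypes. Smad7, the feedback inhibitor of the pathway, was called higher in 6 of 7, and in ΔC/fl cells its log2 fold change was 0.67 (limma adjusted p = 0.243). Bhlhe40, which encodes a transcription factor, was called higher in 5 genotypes, ΔC/fl cells (1.59) among them. Of 56 tests on 8 such genes 29 were called, all higher, from 2 of 8 in fl/fl and in ΔC/fl cells to 6 of 8 in D164A/fl and in ΔC/- cells, with medians from 0.72 to 1.84.

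Cdh1, Cdh3, Cdh11 and Cdh13 lie on chromosome 8 of GRCm38 and Cdh2 lies on chromosome 18. Cdh3 spans bases 106510852 to 106556911 and Cdh1 bases 106603350 to 106670247, with 46438 bases between them. Cdh11 (102632095 to 102785493) and Cdh13 (118140017 to 119324929) are farther away, and Cdh2 spans bases 16588877 to 16809246. Of the 5 members, 0 matched in the RefSeq promoter sequences for this build.

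Per length, the genes stood far apart. The median level over the 56 samples was 109 CPM per kb of exon for Cdh1, 6.19 for Cdh2, 2.26 for Cdh13, 0.0334 for Cdh3 and 0.00803 for Cdh11. Cdh1 ran from 49.9 to 1051 CPM, Cdh2 from 3.04 to 254 CPM and Cdh13 from 0.386 to 151 CPM, so these 3 genes were detected in all samples. Cdh3 had at most 44 reads and Cdh11 at most 28 reads in any sample. Per kb, Cdh1 exceeded Cdh2 in 54 of the 56 samples.

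Cdh1, the E-cadherin gene, fell with TGFb in fl/fl and ΔC/fl cells. In fl/fl cells its level was 966 and 782 CPM in the untreated replicates and 457 and 302 CPM in the treated ones, a mean 2.30-fold lower. ΔC/fl cells had 324 and 335 CPM untreated and 73.4 and 49.9 CPM treated, a mean 5.35-fold lower and the lowest Cdh1 levels of the 56 samples. In both genotypes each treated replicate lay below both untreated ones. The log2 fold change was -1.22 ± 0.34 (limma adjusted p = 0.0178) in fl/fl cells and -2.43 ± 0.34 (limma adjusted p = 3.77e-06) in ΔC/fl cells. The call in fl/fl cells was lost without untreated replicate 1 (-1.07, limma adjusted p = 0.199) and without treated replicate 2 (-0.93, adjusted p = 0.341), and over the 4 replicates left out in turn the adjusted p ran from 0.0208 to 0.341. With only the 4 samples compared, the adjusted p was 0.138 in fl/fl cells, the highest of its other alternatives (0.000505 to 0.138), and 0.0573 in ΔC/fl cells (1.25e-07 to 0.0573).

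The other 5 genotypes gave no call for Cdh1. D164A/fl cells had 823 and 871 CPM untreated and 707 and 875 CPM treated. D164A/- cells had 663 and 660 CPM untreated and 1051 and 830 CPM treated, and ΔC/- cells had 278 and 284 CPM untreated and 506 and 589 CPM treated. In both of these deleted lines the treated replicates lay above the untreated ones, with log2 fold changes of 0.50 ± 0.34 (limma adjusted p = 0.736) and 0.95 ± 0.34 (limma adjusted p = 0.0755). In dm/fl cells 254 and 290 CPM untreated stood beside 173 and 159 CPM treated, a log2 fold change of -0.71 ± 0.34 (limma adjusted p = 0.22). The dm/- replicates parted, with 495 and 447 CPM untreated and 502 and 140 CPM treated. Their log2 fold change was -0.82 ± 0.34 (limma adjusted p = 0.156), and without treated replicate 1 it was -1.74 (adjusted p = 0.000257, against 0.000257 to 1 over the 4 replicates left out in turn).

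Cdh2, the N-cadherin gene, rose with TGFb in D164A/- and ΔC/fl cells. In D164A/- cells it went from 3.94 and 3.96 CPM untreated to 51.9 and 47.8 CPM treated, a mean 12.6-fold higher. ΔC/fl cells went from 107 and 79.0 CPM to 254 and 222 CPM, a mean 2.56-fold higher and the highest Cdh2 levels of the 56 samples. The treated level of D164A/- cells was thus close to that of fl/fl cells, where Cdh2 stood at 55.2 and 51.7 CPM untreated and 55.8 and 54.7 CPM treated. The log2 fold change was 3.36 ± 0.43 (limma adjusted p = 9.89e-07) in D164A/- cells and 1.36 ± 0.43 (limma adjusted p = 0.0366) in ΔC/fl cells. In ΔC/fl cells the call was lost without any of the 4 replicates, namely untreated replicate 1 (1.58, adjusted p = 0.0711), untreated replicate 2 (1.14, adjusted p = 0.293), treated replicate 1 (1.26, adjusted p = 0.249) and treated replicate 2 (1.46, adjusted p = 0.0991). It was also lost with edgeR (adjusted p = 0.0511) and with only the 4 samples compared (adjusted p = 0.0779), within a range of 0.000526 to 0.0779 over its other alternatives. In D164A/- cells the call held without any 1 replicate and was lost with only the 4 samples compared (adjusted p = 0.0523, within 1.05e-08 to 0.0523).

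Cdh2 was not called in the other 5 genotypes. D164A/fl cells had 32.7 and 27.3 CPM untreated and 62.4 and 71.1 CPM treated, a mean 2.23-fold higher with a log2 fold change of 1.13 ± 0.43 (limma adjusted p = 0.156). With only the 4 samples compared this passed the test (adjusted p = 0.0496), as it did with the trend along GC content removed (1.19, adjusted p = 0.0392, both within 0.00149 to 0.205 over its alternatives). It also passed with the replicate numbers as a block (limma adjusted p = 0.0421). ΔC/- cells had 45.1 and 49.9 CPM untreated and 84.0 and 75.0 CPM treated, a log2 fold change of 0.73 ± 0.43 (limma adjusted p = 0.384). In both genotypes the treated replicates lay above the untreated ones. The dm/fl replicates parted at 80.2 and 45.2 CPM untreated and 72.3 and 15.8 CPM treated. Their log2 fold change of -0.81 ± 0.43 (limma adjusted p = 0.301) was -1.87 without treated replicate 1 and 0.26 without treated replicate 2. The dm/- cells had 12.1 and 15.1 CPM untreated and 15.6 and 25.3 CPM treated, a log2 fold change of 0.53 ± 0.43 (limma adjusted p = 0.642).

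**Figure D1:**
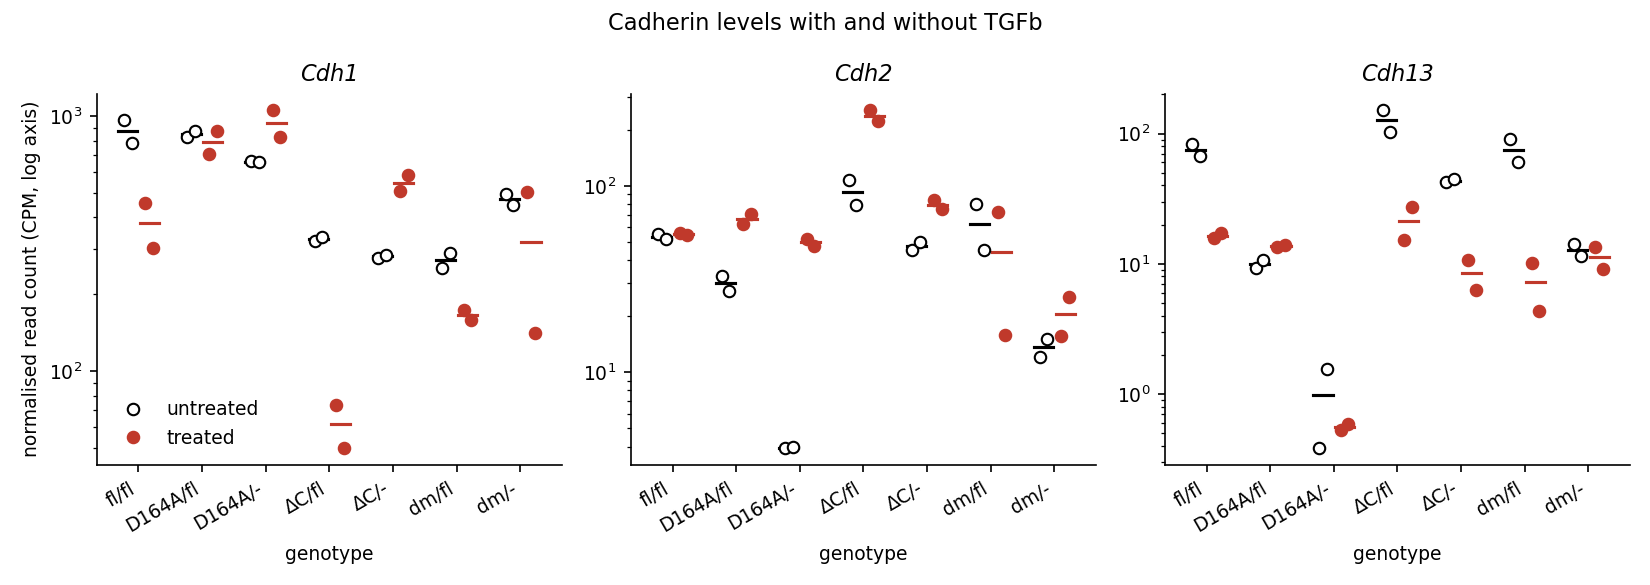
Normalised read count in CPM on a log axis of Cdh1, Cdh2 and Cdh13 in 7 genotypes of the TGFb experiment, with a point for each of 2 replicates and a bar for their mean, open for untreated and red for treated cells. Cdh1 is lowest in treated ΔC/fl cells at 73.4 and 49.9 CPM, where Cdh2 is highest at 254 and 222 CPM.

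Cdh13, which encodes T-cadherin, a cadherin held by a lipid anchor without a cytoplasmic tail, fell with TGFb in 4 genotypes. In fl/fl cells it was at 82.5 and 67.1 CPM untreated and 15.7 and 17.1 CPM treated, a mean 4.56-fold lower. ΔC/fl cells had 151 and 104 CPM untreated against 15.2 and 27.3 CPM treated, 5.98-fold lower, and in ΔC/- cells 42.3 and 44.4 CPM stood against 10.8 and 6.32 CPM, 5.07-fold lower. In dm/fl cells 90.1 and 60.5 CPM stood against 10.2 and 4.31 CPM, 10.4-fold lower. In each of these 4 genotypes both treated replicates lay below both untreated ones. The log2 fold changes were -2.12 (limma adjusted p = 0.000725) in fl/fl, -2.56 (5.63e-05) in ΔC/fl, -2.26 (0.000409) in ΔC/- and -3.28 (5.63e-07) in dm/fl cells, each with an SE of 0.43. The 4 calls held without any 1 replicate, and the call in ΔC/fl cells was lost with only the 4 samples compared (adjusted p = 0.077, within 5.59e-07 to 0.077 over its alternatives).

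In the 3 genotypes without a call, Cdh13 was already low before TGFb. D164A/fl cells had 9.20 and 10.7 CPM untreated and 13.4 and 13.9 CPM treated. D164A/- cells had 0.386 and 1.56 CPM untreated and 0.529 and 0.586 CPM treated, and dm/- cells had 14.2 and 11.4 CPM untreated and 13.5 and 9.12 CPM treated. The log2 fold changes were 0.43, -0.27 and -0.18 in these lines, with limma adjusted p of 0.797, 1 and 0.982. In treated cells, the mean Cdh13 level of 6 genotypes lay between 7.26 and 21.2 CPM, and that of D164A/- cells was 0.558 CPM.

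**Figure D2:**
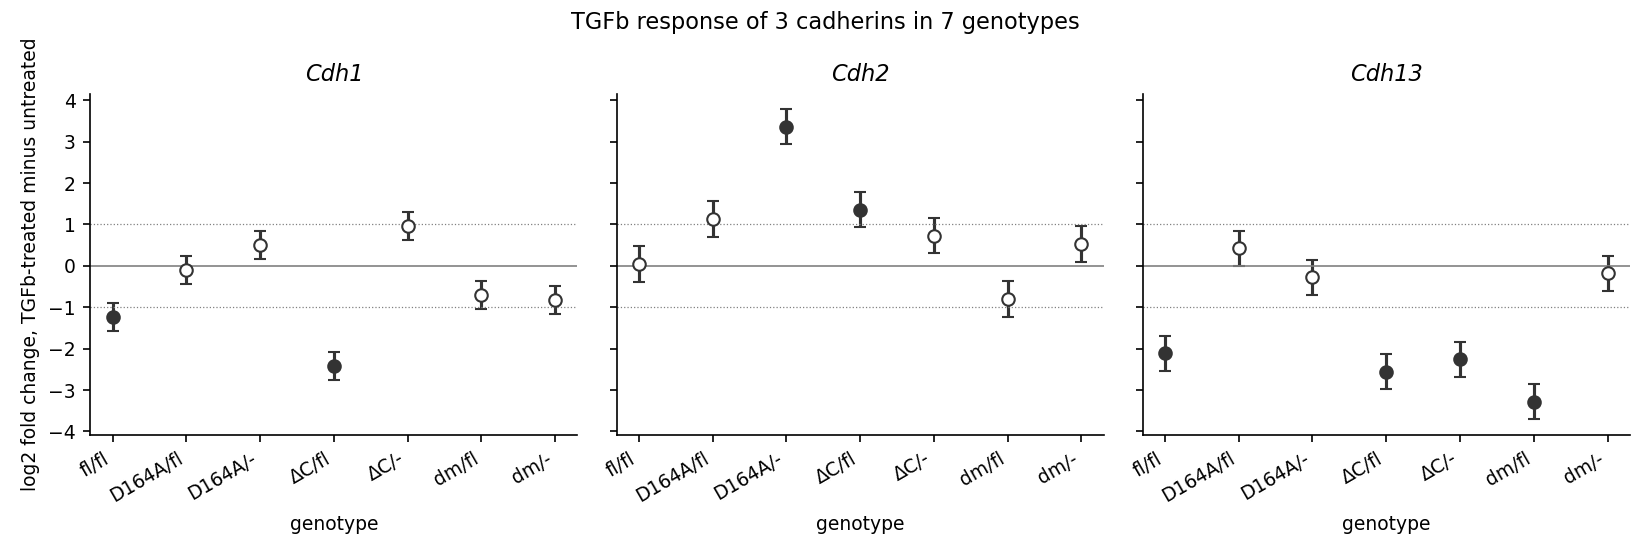
Log2 fold change of Cdh1, Cdh2 and Cdh13 with TGFb in each of 7 genotypes, with SE from limma as bars and filled points for changes that passed the test. Cdh13 has 4 filled points below 0, Cdh1 has 2 below 0 and Cdh2 has 2 above 0.

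Cdh3, the P-cadherin gene, was detected weakly and mainly in fl/fl and dm lines. In fl/fl cells 32 and 24 reads untreated (1.29 and 0.898 CPM) stood against 7 and 1 reads treated (0.311 and 0.0368 CPM). The log2 fold change was -0.84 ± 0.25 (limma adjusted p = 0.0318), under the fold threshold, and with a pseudocount of 0.1 in place of 1 it was -2.31 and called (adjusted p = 0.0145, within 0.000291 to 0.116 over its alternatives). In dm/fl and dm/- cells it had 9 to 14 reads per sample in both arms of the TGFb experiment. In the D164A and ΔC lines it was at or near the detection limit.

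Cdh11, which encodes OB-cadherin of osteoblasts and fibroblasts, was below the detection limit of 3 reads in most samples and low in the others. It had 0 reads in 15 samples and at least 3 reads in 22 samples. Its highest level was 1.36 CPM (28 reads) in a TGFb-treated replicate of ΔC/fl cells. The other had 0.511 CPM (12 reads), and the untreated replicates had 0.72 and 0.254 CPM (18 and 8 reads). In fl/fl cells it went the other way, with 16 and 8 reads untreated and 4 and 3 reads treated. In the Wnt3a experiment, fl/fl cells had 9 and 16 reads untreated and 1 and 2 reads treated. In dm/fl cells these were 0 and 2 reads and then 16 and 6 reads. Without the filter on low values, limma called 0 of its 34 comparisons, with 11 at an unadjusted p under 0.05 and 4 at an adjusted p under 0.05 (lowest 0.000936) but under the fold threshold. These 4 were untreated levels against fl/fl cells, and edgeR was not run on the gene.

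Counted over the 7 genotypes, 8 of 28 tests on members were called with TGFb, 6 lower and 2 higher. In fl/fl cells 2 of 4 tested members were called, beside 6.25% of all genes, and in D164A/fl cells 0 of 4, beside 3.38%. In D164A/- cells 1 of 4 was called, beside 4.06%, in ΔC/fl cells 3 of 4, beside 7.74%, and in ΔC/- cells 1 of 4, beside 6.55%. In dm/fl cells 1 of 4 was called, beside 10.3%, and in dm/- cells 0 of 4, beside 6.12%. Where limma called 0, 1 member had an unadjusted p under 0.05 in D164A/fl and 1 in dm/- cells, and edgeR called 0 in both. Calls for Cdh1 and Cdh2 in opposite directions came together in ΔC/fl cells. Neither response was called different there from that of fl/fl cells in the main test, with differences of -1.20 ± 0.48 (limma adjusted p = 0.258) for Cdh1 and 1.31 ± 0.61 (limma adjusted p = 0.418) for Cdh2. With the replicate numbers as a block and the trend along GC content removed, limma called both (-1.32, adjusted p = 0.00919, and 1.18, adjusted p = 0.0288).

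Averaged over the 7 genotypes, Cdh13 fell by 1.46 ± 0.16 on the log2 scale (limma adjusted p = 9.51e-09). It was the 1 of 4 members called, beside 4.88% of all genes. Cdh2 had a mean log2 fold change of 0.91 ± 0.16 (limma adjusted p = 4.35e-05) and Cdh1 of -0.55 ± 0.13 (limma adjusted p = 0.00117), both under the fold threshold. Without dm/fl treated replicate 2 the mean of Cdh2 was 1.06 and called.

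A mean hides how far the genotypes differed. The F test of limma for a TGFb response that differs between the 7 genotypes, called on its adjusted p alone, was passed by 3 of 4 members, beside 18.3% of all genes. These were Cdh1 (adjusted p = 3.42e-05), Cdh13 (3.18e-05) and Cdh2 (0.000151), while Cdh3 had an adjusted p of 0.487 and passed with only the samples compared (0.00233, within 0.00233 to 0.737 over its alternatives). The other 3 held without any 1 replicate.

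The next question was which mutant genotypes differed from fl/fl cells in their response. These 6 comparisons share the fl/fl samples. In D164A/fl cells 1 of 4 members was called, beside 3.81% of all genes, in D164A/- cells 2 of 4, beside 4.28%, and in ΔC/- cells 1 of 4, beside 2.01%. In ΔC/fl cells 0 of 4 were called by limma, beside 2.69%, in dm/fl cells 0 of 4, beside 4.04%, and in dm/- cells 0 of 4, beside 2.78%. Unadjusted p under 0.05 occurred for 3, 1 and 2 members in these 3 genotypes, and edgeR called 0. In an alternative with the replicate numbers as a block, limma called Cdh13 in dm/- (adjusted p = 0.00309) and also in D164A/- cells (0.00363). With the trend along GC content removed as well, it also called Cdh1 and Cdh2 in ΔC/fl, Cdh13 in dm/fl and Cdh2 in D164A/fl cells.

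Cdh2 responded more in D164A/- than in fl/fl cells, by 3.31 ± 0.61 on the log2 scale (limma adjusted p = 0.000428). The Cdh1 response differed by 1.72 ± 0.48 between the same genotypes (limma adjusted p = 0.0276), and by 2.18 ± 0.48 between ΔC/- and fl/fl cells (limma adjusted p = 0.00691). Cdh13 responded less in D164A/fl than in fl/fl cells, a difference of 2.54 ± 0.60 (limma adjusted p = 0.00855). Some of these calls rested on single libraries. That of Cdh1 in D164A/- cells was lost without fl/fl untreated replicate 1 (1.57), fl/fl treated replicate 2 (1.42), D164A/- untreated replicate 1 (1.73), untreated replicate 2 (1.72) or treated replicate 1 (1.55), with adjusted p from 0.0813 to 0.206, and with edgeR (adjusted p = 0.0509, within 0.00117 to 0.0509 over its other alternatives). That of Cdh1 in ΔC/- cells was lost without fl/fl treated replicate 2 (1.88, adjusted p = 0.0776), and that of Cdh13 in D164A/fl cells without D164A/fl untreated replicate 1 (2.44, adjusted p = 0.0552). Cdh13 in D164A/- cells, at 1.84 ± 0.60 (limma adjusted p = 0.0824), was called without D164A/- untreated replicate 2 (2.28, adjusted p = 0.0459), and Cdh2 in dm/fl cells was called without dm/fl treated replicate 1 (-1.92, adjusted p = 0.0338). With only the samples compared, limma also called Cdh13 in dm/- cells (1.93 ± 0.60 and adjusted p = 0.0845 in the main test, here 0.049, within 0.00265 to 0.202 over its alternatives). The same fit called Cdh2 in D164A/fl cells (1.08 ± 0.61 and adjusted p = 0.578 in the main test, here 0.0312, within 0.0312 to 0.709).

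Deleted and floxed lines differed in a cadherin response for ΔC and for dm. The Cdh1 response differed by 3.38 ± 0.48 on the log2 scale between ΔC/- and ΔC/fl cells (limma adjusted p = 2.15e-05), and this was the 1 of 4 members called, beside 3.13% of all genes. Cdh13 responded less in dm/- than in dm/fl cells, a difference of 3.10 ± 0.60 (limma adjusted p = 0.000577), again 1 of 4, beside 7.31%. Both calls held without any 1 replicate. Between D164A/- and D164A/fl cells 0 of 4 were called by limma, beside 1.35%, with 1 member at an unadjusted p under 0.05 and 0 called by edgeR. That 1 was Cdh2, with a difference of 2.23 ± 0.61 (limma adjusted p = 0.0514). It was called by limma without the filter on low values (adjusted p = 0.0489), with only the samples compared (0.0224) and with the trend along GC content removed (2.28, 0.0134), within 0.000406 to 0.139 over its alternatives. The replicate numbers as a block also gave a call (limma adjusted p = 0.0128). Cdh2 was also called between dm/- and dm/fl cells without dm/fl treated replicate 1 (2.39, adjusted p = 0.00336).

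The balance of N-cadherin to E-cadherin RNA is given as the log2 ratio of Cdh2 to Cdh1, each as CPM per kb, and was not tested. It was below 0 in 54 of 56 samples. The 2 above 0 were the TGFb-treated ΔC/fl replicates, at 0.97 and 1.33, and their untreated cells had a mean of -2.66. The mean ratio went from -4.84 to -3.57 with TGFb in fl/fl cells, from -5.64 to -4.38 in D164A/fl cells and from -8.21 to -5.05 in D164A/- cells. In these 4 genotypes both treated ratios lay above both untreated ones, an order that 2 against 2 replicates can also take by chance. In ΔC/- cells the mean went from -3.39 to -3.60 and in dm/fl cells from -2.99 to -3.11. In dm/- cells it went from -5.94 to -4.56 with overlapping replicates. Among the 4 genotypes with both treated ratios above both untreated ones, Cdh1 was called lower in fl/fl, Cdh2 higher in D164A/-, both in ΔC/fl and neither in D164A/fl cells. With Wnt3a the same order occurred in 1 genotype, dm/fl, where the mean went from -3.87 to -2.88.

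**Figure D3:**
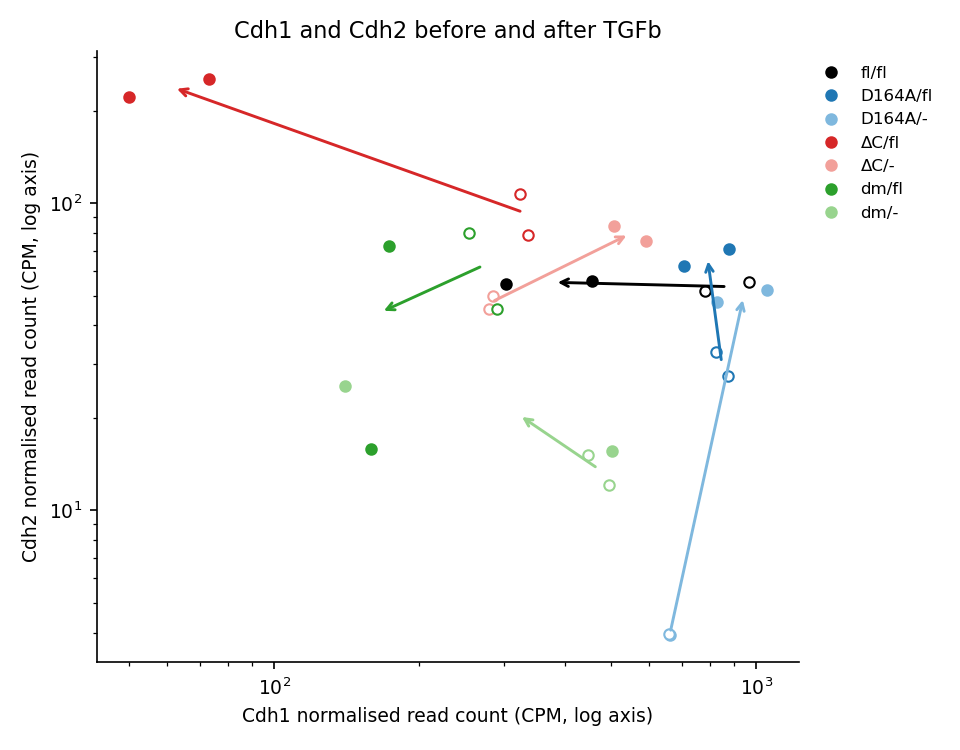
Cdh2 against Cdh1 normalised read count in CPM, both on log axes, for each replicate of the TGFb experiment, with colours for the 7 genotypes, open points for untreated and filled points for treated cells, and arrows from the untreated to the treated mean. The treated ΔC/fl cells stand at the upper left, and D164A/- cells move upward from 3.94 and 3.96 CPM of Cdh2 to 51.9 and 47.8 CPM.

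With Wnt3a, 1 of 28 tests on members was called. The Wnt target Axin2 was called higher with Wnt3a in 6 genotypes, with log2 fold changes from 2.84 to 5.98, and stood at 0.05 in dm/- cells, where limma called 0.0% of all genes (29 genes had an unadjusted p under 0.05, and edgeR called 0). Among the members, 0 of 4 were called in fl/fl cells, beside 0.378%, in D164A/- cells, beside 0.654%, in ΔC/fl cells, beside 0.225%, in ΔC/- cells, beside 0.0509%, in dm/fl cells, beside 0.574%, and in dm/- cells. Over these 6 genotypes limma gave an unadjusted p under 0.05 for 1 member, Cdh2 in dm/fl cells, and edgeR called 0. In D164A/fl cells 1 of 4 was called, beside 4.15%.

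That gene was Cdh13, at 29.0 and 29.6 CPM untreated and 75.7 and 81.6 CPM with Wnt3a. The treated replicates lay above the untreated ones, with a log2 fold change of 1.39 ± 0.43 (limma adjusted p = 0.0477). The call was lost without any of the 4 replicates, that is untreated replicate 1 (1.38, adjusted p = 0.195), untreated replicate 2 (1.41, 0.167), treated replicate 1 (1.45, 0.202) and treated replicate 2 (1.34, 0.281), with edgeR (adjusted p = 0.121), a pseudocount of 0.1 (0.112), all genes kept whatever their level (just over the threshold) or only the 4 samples compared (0.112), within 0.00106 to 0.121 over its other alternatives by limma or edgeR. Cdh1 had log2 fold changes from -0.15 to 0.25 with Wnt3a. Cdh2 in dm/fl cells was at 23.4 and 55.0 CPM untreated and 82.3 and 61.2 CPM treated, with a log2 fold change of 0.96 ± 0.43 (limma adjusted p = 0.292), and was called without untreated replicate 2 (1.56, adjusted p = 0.0114, against 0.0114 to 1 over the 4 replicates left out in turn). Across 9414 genes, which are not independent replicates, the Wnt3a response followed the GC content of transcripts with a Spearman rho of 0.81 in fl/fl, 0.84 in ΔC/- and -0.82 in dm/fl cells, and with this trend removed limma again called 1 member test of 28.

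Before any treatment the genotypes already differed in their cadherins. With the untreated cells of both experiments (n = 4), Cdh1 had a mean of 854 ± 33.2 CPM in D164A/fl, 789 ± 136 CPM in fl/fl and 709 ± 103 CPM in D164A/- cells, which overlapped. It was 494 ± 47.1 CPM in dm/- cells, apart from all others, and 303 ± 35.7 CPM in ΔC/fl, 294 ± 38.9 CPM in ΔC/- and 285 ± 21.1 CPM in dm/fl cells, which overlapped. The E-cadherin gene thus formed a high group of 3 lines and a low group of 3 lines. In TGFb-treated cells the order ran from D164A/- (941 ± 156 CPM) and D164A/fl (791 ± 119 CPM), which overlapped, through ΔC/- (547 ± 58.7 CPM) to fl/fl (379 ± 110 CPM), dm/- (321 ± 255 CPM) and dm/fl (166 ± 9.95 CPM), which overlapped with their neighbours, and ΔC/fl (61.6 ± 16.6 CPM).

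Cdh2 and Cdh13 followed another order. Untreated Cdh2 was highest in ΔC/fl cells (85.2 ± 14.7 CPM), which did not overlap with fl/fl cells, the next in order. Its level was 58.8 ± 6.52 CPM in fl/fl, 53.5 ± 9.56 CPM in ΔC/-, 50.9 ± 23.6 CPM in dm/fl and 32.7 ± 4.08 CPM in D164A/fl cells, with overlaps between neighbours. It was 16.2 ± 3.21 CPM in dm/- and 3.98 ± 0.799 CPM in D164A/- cells, each apart from the rest. Untreated Cdh13 was at 106 ± 33.0 CPM in ΔC/fl, 67.9 ± 13.4 CPM in fl/fl, 63.2 ± 20.7 CPM in dm/fl and 44.8 ± 9.91 CPM in ΔC/- cells with overlaps between neighbours. It was 19.6 ± 11.2 CPM in D164A/fl and 14.9 ± 2.83 CPM in dm/- cells, which overlapped, and 4.16 ± 4.52 CPM in D164A/- cells, with 0.386 and 1.56 CPM in the TGFb and 4.19 and 10.5 CPM in the Wnt3a experiment. D164A/- and dm/- cells were thus low in both genes.

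Tested against fl/fl cells, each mutant genotype had at least 1 member called, and all 8 calls were lower. In D164A/fl cells 1 of 4 was called, beside 16.2% of all genes, in D164A/- cells 2 of 4, beside 18.9%, and in ΔC/fl cells 1 of 4, beside 16.6%. In ΔC/- cells 1 of 4 was called, beside 23.0%, in dm/fl cells 1 of 4, beside 21.1%, and in dm/- cells 2 of 4, beside 17.9%. The background shares are high here, so the counts say little about cadherins as a group. The largest of the 8 differences were Cdh13 in D164A/- cells (-4.15 ± 0.30, limma adjusted p = 2.13e-13, with -5.32 in the TGFb and -2.98 in the Wnt3a experiment) and Cdh2 in the same cells (-3.59 ± 0.30, limma adjusted p = 8.7e-12). In dm/- cells Cdh13 differed by -2.11 ± 0.30 (limma adjusted p = 9.4e-07) and Cdh2 by -1.81 ± 0.30 (limma adjusted p = 1.29e-05).

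Cdh1 was lower than in fl/fl cells by similar amounts in ΔC/fl (-1.37 ± 0.24, limma adjusted p = 2.64e-05), ΔC/- (-1.41 ± 0.24, limma adjusted p = 1.29e-05) and dm/fl cells (-1.45 ± 0.24, limma adjusted p = 9.79e-06). Within the TGFb experiment the 3 differences were -1.40, -1.63 and -1.68, and within the Wnt3a experiment -1.34, -1.20 and -1.23. Cdh13 in D164A/fl cells (-1.90 ± 0.30, limma adjusted p = 5.44e-06) was the call that did not hold within both experiments. It differed by -2.79 in the TGFb and by -1.01 in the Wnt3a experiment, where the limma adjusted p was 0.0784. Cdh3 differed by -0.93 to -0.76 in the D164A and ΔC lines (limma adjusted p from 6.99e-05 to 0.000941), under the fold threshold in the main test, and was called in these 4 lines in 2 or 3 of 10 other alternatives.

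Between deleted and floxed lines, Cdh13 was lower in all 3 deleted genotypes. The log2 difference was -2.25 ± 0.30 for D164A (limma adjusted p = 6.53e-07), -1.20 ± 0.30 for ΔC (limma adjusted p = 0.00282) and -1.97 ± 0.30 for dm (limma adjusted p = 2.91e-06). Cdh2 was lower in D164A/- than in D164A/fl cells (-2.76 ± 0.30, limma adjusted p = 1.45e-08) and in dm/- than in dm/fl cells (-1.49 ± 0.30, limma adjusted p = 0.000188). This makes 2 of 4 members for D164A, beside 9.45% of all genes, 1 of 4 for ΔC, beside 12.2%, and 2 of 4 for dm, beside 18.3%. Within the Wnt3a experiment, limma did not call Cdh13 for ΔC (-0.88, adjusted p = 0.218, against -1.51 in the TGFb experiment) or Cdh2 for dm (-0.91, adjusted p = 0.135, against -2.08).

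**Figure D4:**
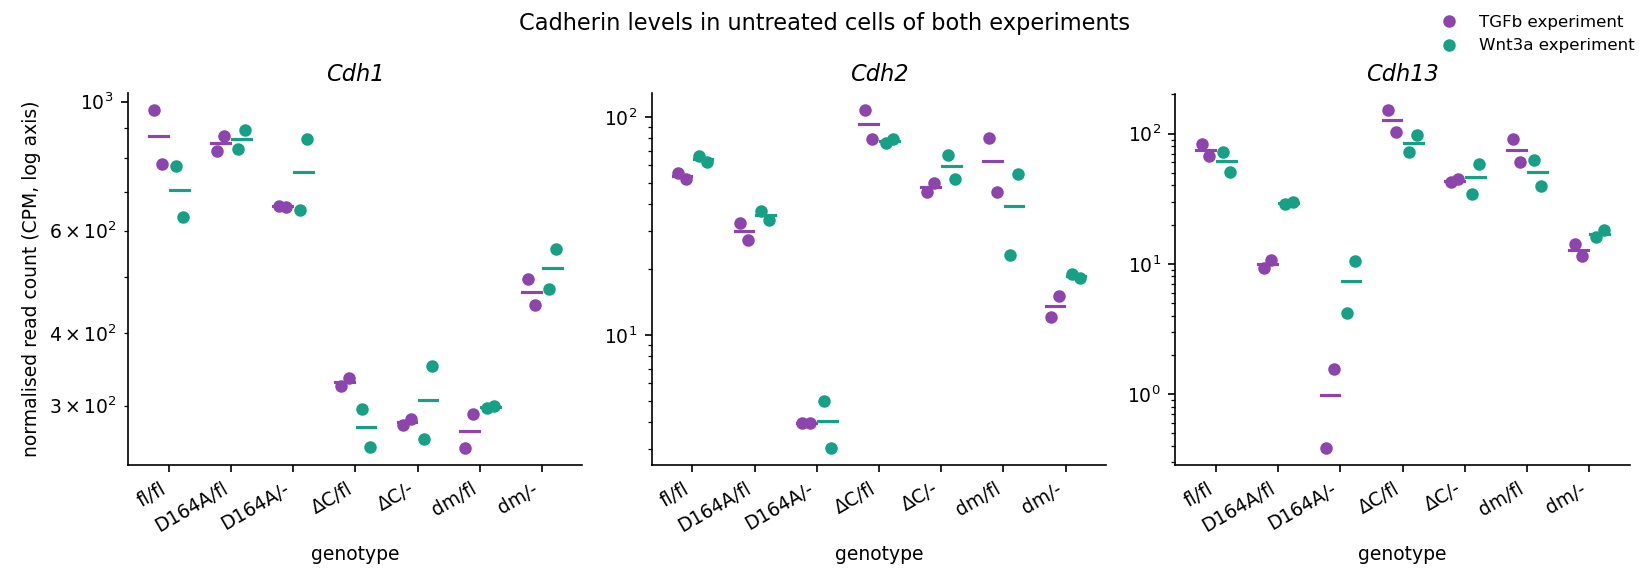
Normalised read count in CPM on a log axis of Cdh1, Cdh2 and Cdh13 in untreated cells of the 7 genotypes, with a point per replicate and a bar for the mean of 2, purple for the TGFb and green for the Wnt3a experiment. Cdh2 and Cdh13 have their lowest means in D164A/- cells, where the 4 values of Cdh13 run from 0.386 to 10.5 CPM.

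Other cadherins of the classical and atypical type were called higher with TGFb more often than lower. Of all genes, 3.38% to 10.3% were called per genotype, against which this and the following lists can be read. Of 18 listed genes 9 were tested, and of their 63 tests 12 were called higher and 1 lower, with a median log2 fold change per genotype from 0.02 to 0.58 (all genes -0.03 to 0.03). Cdh10, a cadherin of the brain, was called higher in 5 genotypes. It stood at 2.13 and 0.487 CPM in untreated and 35.2 and 19.3 CPM in treated fl/fl cells, and at 0.124 and 0.127 CPM against 14.0 and 6.15 CPM in dm/fl cells. Cdh5, the endothelial VE-cadherin gene, went from 0.0932 and 0.0956 CPM to 35.0 and 34.0 CPM in dm/fl cells, while the endothelial markers Kdr, Tek and Emcn stayed below 1 CPM in all samples. Cdh23, which encodes a cadherin of inner ear hair cells, was called higher in ΔC/fl (1.18) and ΔC/- cells (2.17), and Cdh15, the muscle M-cadherin gene, in D164A/fl cells (2.24).

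Desmosomal cadherins, which anchor intermediate filaments, mostly fell where they were called. Of 49 tests on 7 of 9 listed genes, 1 was called higher and 5 lower, with medians from -0.43 to 0.03. Dsg3, a desmoglein of basal epithelial cells, went from 206 and 67.6 CPM to 12.9 and 3.94 CPM in fl/fl cells and from 82.0 and 44.2 CPM to 1.95 and 1.91 CPM in ΔC/fl cells. Both are genotypes in which Cdh1 fell. Dsg2, the desmoglein of simple epithelia, was called lower in ΔC/fl (-1.61) and higher in dm/fl cells (2.27). Among 13 tested of 20 large cadherins and protocadherins, 9 of 91 tests were called higher and 5 lower, with medians from -0.75 to 0.49. Fat4, a giant cadherin of planar cell polarity, was called higher in fl/fl (1.91), D164A/- (2.17) and dm/- cells (1.96).

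Few catenins and junction anchors passed the test. Of 105 tests on 15 of 17 listed genes 4 were called, all higher, with medians from -0.06 to 0.44. The 4 were Vcl (2.03) and Lima1 (1.70) in dm/- cells, both of which encode actin-binding proteins, and Ctnnal1 (1.95) and Nectin3 (2.03) in ΔC/- cells, the latter an adhesion receptor of adherens junctions.

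Known repressors of Cdh1 gave 4 calls higher and 2 lower in 63 tests on 9 genes, with medians from -0.01 to 0.66. In fl/fl cells 2 of 9 were called, beside 6.25% of all genes. In D164A/- and ΔC/fl cells limma called 0 of 9, beside 4.06% and 7.74%, and edgeR 1 of 9. Each other genotype had 1 of 9, beside 3.38% to 10.3%. An unadjusted p under 0.05 occurred in 23 of the 63 tests, and per genotype in 1682 to 2864 of all 13754 genes. Zeb1 was called higher in fl/fl (3.43), ΔC/- (2.23) and dm/- cells (3.07). Its level rose from 4.63 and 3.67 CPM to 46.4 and 63.4 CPM in fl/fl cells, and from 3.49 and 3.40 CPM to 21.6 and 18.3 CPM in ΔC/- cells. In these ΔC/- cells Cdh1 was not called, and its treated replicates (506 and 589 CPM) lay above the untreated ones (278 and 284 CPM). In ΔC/fl cells Zeb1 was at 76.4 and 51.8 CPM before and 206 and 151 CPM after TGFb, a log2 fold change of 1.47 that was not called. In D164A/fl and D164A/- cells it stayed between 0.381 and 2.86 CPM in all 8 samples. Zeb2 was called higher in fl/fl cells (2.32), Twist2 lower in dm/fl cells (-1.77) and Snai3 lower in D164A/fl cells (-1.24).

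Epithelial genes were called lower most often in ΔC/fl cells. Of 161 tests on 23 epithelial genes 34 were called lower and 1 higher, with medians from -1.90 to 0.05. Of the 34, 13 were in ΔC/fl cells, among them Epcam (-2.30), an epithelial adhesion molecule, the splicing factor Esrp1 (-1.92), the protease St14 (-2.17) and Grhl2 (-1.97), a transcription factor of epithelial cells. In fl/fl cells 7 were called lower, in D164A/- cells 5, in dm/fl cells 4, in dm/- cells 4 and in ΔC/- cells 1. For D164A/fl cells limma called 0, with 4 genes at an unadjusted p under 0.05 and 0 called by edgeR. ΔC/fl cells thus showed the lowest Cdh1 together with the most epithelial genes called lower.

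Mesenchymal genes were called higher more often than lower. Of 105 tests on 15 genes 42 were called higher and 2 lower, with medians from 0.16 to 2.24. Those higher were 8 in fl/fl, 5 in D164A/fl, 5 in D164A/-, 7 in ΔC/fl, 6 in ΔC/-, 3 in dm/fl and 8 in dm/- cells, and the 2 lower, Col5a1 and Postn, were in dm/fl cells. Tnc, which encodes the matrix protein tenascin C, was called higher in all 7 genotypes (3.12 to 9.43) and Fn1, the fibronectin gene, in 6. Vim, which encodes the intermediate filament vimentin, was called higher in fl/fl (3.63), ΔC/- (3.36) and dm/- cells (6.81). Some mesenchymal genes were thus called higher also in D164A/fl, ΔC/-, dm/fl and dm/- cells, in which neither Cdh1 nor Cdh2 was called.

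**Figure D5:**
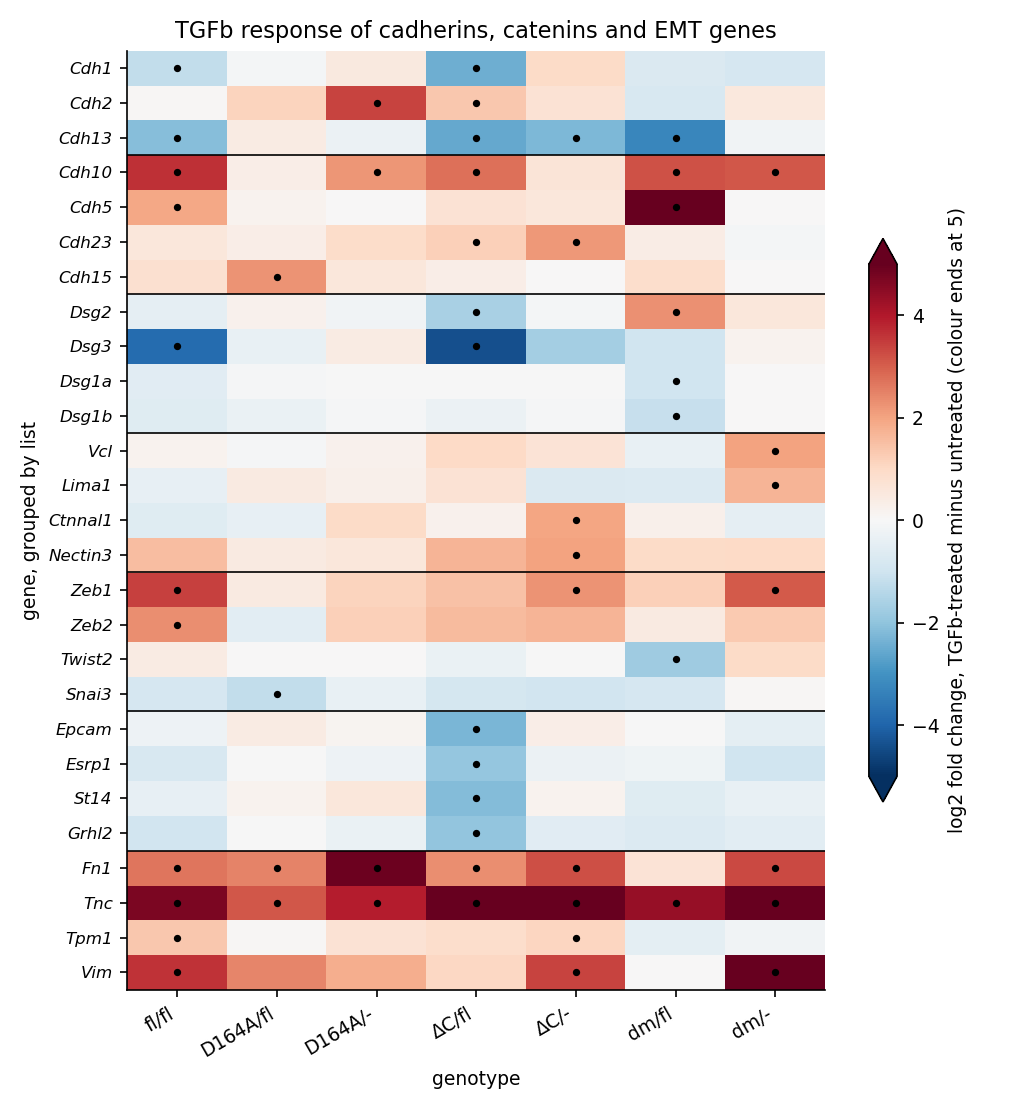
Log2 fold change with TGFb in 7 genotypes of 3 members and of named genes of 6 lists, in colour, with lines between lists and dots on changes that passed the test. Fn1 and Tnc are red nearly throughout, and Epcam, Esrp1, St14 and Grhl2 carry dots in ΔC/fl cells alone.

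Markers of cell types were read in the same samples, and their part in the cadherin results was not tested. Fewer cells of a type and less RNA per cell cannot be told apart in such samples. The 6 epithelial markers summed to 951 to 7979 CPM with Krt18 the most abundant, and 3 of 42 tests were called lower, all in ΔC/fl cells. In ΔC/- cells their sums were 2091 and 2528 CPM untreated and 4202 and 7546 CPM with TGFb. In ΔC/fl cells they were 1510 and 2078 CPM and then 1130 and 1524 CPM. The 9 fibroblast markers summed to 5.58 to 779 CPM with Pdgfrb the most abundant and Lum, Thy1 and Fap below 1 CPM in all samples. In ΔC/fl cells they summed to 779 and 321 CPM untreated and 507 and 421 CPM treated, in dm/fl cells to 554 and 332 CPM and then 142 and 105 CPM, and in fl/fl cells to 11.2 and 5.58 CPM and then 30.4 and 32.9 CPM. In ΔC/- cells, whose untreated Cdh1 overlapped with that of ΔC/fl and dm/fl cells, they summed to 9.98 and 9.50 CPM and then 26.3 and 25.8 CPM. In dm/- cells they summed to 7.06 and 8.06 CPM and then 37.5 and 127 CPM. The treated dm/- replicate at 127 CPM was the one with Cdh1 at 140 CPM. Of 42 fibroblast tests 8 were called higher and 3 lower, 6 of the 8 being Col1a1.

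Of 6 markers of myoepithelial cells, the basal layer of the gland, limma called 1 lower with TGFb in fl/fl cells, with 2 at an unadjusted p under 0.05. The 6 genes summed to 669 and 672 CPM in untreated and 156 and 205 CPM in treated fl/fl cells, with Krt14 the most abundant, and 4 of 42 tests were called higher and 8 lower. Trp63, the transcription factor of basal cells, was called lower in fl/fl, D164A/-, ΔC/fl and dm/fl cells. In the other genotypes in which Cdh13 fell, the sums were 326 and 599 CPM untreated and 238 and 85.9 CPM treated in ΔC/fl cells (3 genes called lower, Trp63, Krt14 and Mylk, and Acta2 higher). They were 435 and 558 CPM and then 215 and 411 CPM in dm/fl cells (2 called lower, Trp63 and Mylk), and 55.0 and 59.6 CPM and then 37.2 and 59.7 CPM in ΔC/- cells. Where Cdh13 was not called, D164A/fl cells had sums of 243 and 541 CPM and then 227 and 454 CPM. D164A/- cells had 294 and 350 CPM and then 260 and 213 CPM, with 3 of 6 genes called. In dm/- cells the sums rose from 124 and 51.6 CPM to 522 and 248 CPM. Smooth muscle markers summed to 0.772 to 190 CPM (Notch3 highest on average, Myh11 and Cspg4 below 1 CPM), with 3 of 28 tests called higher and 4 lower. They reached 190 and 51.6 CPM in treated ΔC/fl cells through Acta2.

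Endothelial and leukocyte markers were low. Endothelial markers summed to at most 35.2 CPM, nearly all of it Cdh5, with 2 of 14 tests called, both higher. Leukocyte markers summed to 1.41 to 79.8 CPM, with Cd68 the most abundant and Ptprc, Cd3e, Itgam and Cd79a below 1 CPM in all samples, and 3 of 14 tests were called lower. Cd68 fell with TGFb in ΔC/- and dm/- cells.

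Genes whose pattern was most like that of each member were ranked by Pearson correlation of log2(CPM + 1) over the 28 condition means, which share genotypes and untreated lines. For Cdh1 they were Kazn (0.917), Esrp1 (0.884) and Marveld2 (0.868), among 12205 genes compared. For Cdh2 they were Vgll3 (0.873), Rasa3 (0.833) and Ptgs2os (0.827), and for Cdh13 Avpi1 (0.841), Loxl4 (0.838) and Lynx1 (0.817). For Cdh3 they were Ripor2 (0.914), Fundc2 (0.860) and Gjb2 (0.856), and for Cdh11, below the detection limit in most samples, Chic1 (0.724), Pls3 (0.721) and Jade1 (0.719).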

How the data were processed

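RNA was measured in 56 samples, 2 replicates in each of 28 conditions taken from the labels. According to the methods, the authors made stranded poly(A) libraries, kept reads with a unique hit on mm10, and counted those starting within exons of RefSeq genes. The deposited values are a normalised signal. Within each sample they were whole multiples of the smallest positive value (tolerance 0.001). They were therefore read as whole reads divided by an effective library size, so reads were recovered and the unit is called CPM. The scaling factors implied by the values lay between 0.809 and 1.14, and their type is inferred from the values. Of 20314 Entrez identifiers, 20261 matched a RefSeq symbol of GRCm38.

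The log2 of CPM + 1 was tested with limma 3.58.1 in R 4.3.3 (lmFit, contrasts.fit, eBayes with trend) with a coefficient for each condition and 28 residual degrees of freedom, which was also tested on simulated data. The 34 comparisons were treated against untreated cells within a genotype, their mean, an F test over genotypes, differences of responses between genotypes, and untreated levels between genotypes averaged over both experiments. Tables and plots used Python 3.11.15, pandas 2.3.3, numpy 2.4.6 and matplotlib 3.10.9.

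The members and lists were chosen with earlier results of these data known. Lists covered other cadherins, desmosomal cadherins, large cadherins and protocadherins, catenins and anchors, repressors of Cdh1, epithelial and mesenchymal genes, TGFb and Wnt3a targets, and markers of cell types, of which those of 6 are reported. Named from each list were up to 4 called genes with the highest mean level and genes whose role is explained.

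The alternatives tried included 0.1 as pseudocount, leaving out the filter on low values, median-of-ratios scaling, edgeR 4.0.16 on recovered reads, only the samples compared, the adjusted p alone, a replicate block, removal of a GC trend (lowess, span 0.3, GENCODE vM21, 9414 genes averaging 10 CPM or more), the last 2 together, untreated cells of 1 experiment, and each replicate left out in turn. Where a condition was left with 1 sample, that sample was assumed to vary like the other groups. Values of other assays of the study were not analysed.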

Additional observations from a re-analysis of the deposited data

Results flagged for a closer look

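In 6 cases the TGFb response of a cadherin differed between genotypes by limma's test of the difference itself (log2 difference of 2 responses, 2 replicates per condition). Compared with fl/fl cells, these were Cdh13 in D164A/fl cells (2.54 ± 0.60 SE, limma adjusted p = 0.00855), Cdh1 in D164A/- cells (1.72 ± 0.48, limma adjusted p = 0.0276), Cdh2 in D164A/- cells (3.31 ± 0.61, limma adjusted p = 0.000428) and Cdh1 in ΔC/- cells (2.18 ± 0.48, limma adjusted p = 0.00691). Compared with the floxed line of the same mutation, they were Cdh1 in ΔC/- cells (3.38 ± 0.48, limma adjusted p = 2.15e-05) and Cdh13 in dm/- cells (3.10 ± 0.60, limma adjusted p = 0.000577). The 4 differences from fl/fl cells share the fl/fl samples. Of all genes, 3.81% were called in the comparison of D164A/fl, 4.28% in that of D164A/- and 2.01% in that of ΔC/- with fl/fl cells, and 3.13% for ΔC and 7.31% for dm against the floxed line. The calls of Cdh13 in D164A/fl cells and of Cdh1 in D164A/- and ΔC/- cells against fl/fl cells were lost with some single replicates left out, and that of Cdh1 in D164A/- cells also with edgeR.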

How the results depend on the processing

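The number of member tests called with TGFb was 8 of 28, ran from 7 to 9 with each replicate left out in turn, and was 4 with only the samples compared, a fit with fewer samples. For the mean response the number was 1 (1 to 2 with a replicate left out), 2 with edgeR and 3 with the adjusted p alone. For the F test it was 3 without any 1 replicate. For differences from fl/fl cells it was 4 (2 to 5) and for deleted against floxed lines 2 (2 to 4), and with a replicate block and the GC trend removed these were 10 and 4. For Wnt3a it was 1 (0 to 2) and 0 with edgeR, a pseudocount of 0.1, without the filter on low values or only the samples compared. For untreated levels against fl/fl it was 8 (8 to 9) and 14 with the adjusted p alone, and for deleted against floxed untreated lines 5 (5 to 5) and 3 in the Wnt3a experiment alone. For untreated levels against fl/fl, edgeR called 2 members in D164A/fl, 3 in D164A/-, 2 in ΔC/fl and 2 in ΔC/- cells. By limma these were 1, 2, 1 and 1, and in dm/fl and dm/- cells both gave the same counts. Between untreated ΔC/- and ΔC/fl cells edgeR called 2 and limma 1. Apart from fits with fewer samples and the rule without a fold threshold, the cause was not tested.

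For single genes, 100 results were tallied. Of their values, 631 of 688 with a replicate left out and 874 of 927 under other alternatives kept their direction and their side of the threshold. Of the rest, 17 and 14 lost the call and 7 and 26 gained it. These counts do not hold the calls of Cdh3 in the F test or in untreated levels, nor those gained with the adjusted p alone. A further 33 and 13 turned their sign, none of them a called value. Median-of-ratios scaling moved samples by -0.07 to 0.11 on the log2 scale.

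With the number in the labels as a replicate block, the counts were 9 with TGFb, 1 for the mean, 4 for the F test, 6 against fl/fl cells, 3 for deleted against floxed lines, 1 with Wnt3a, and 8 and 5 for untreated levels. Across genes, same-numbered replicates of treated and untreated cells deviated together in 12 of 14 pairs (correlation above 0.1, from -0.25 to 0.94), and those of untreated genotypes in 6 of 12 (-0.45 to 0.44). With the GC trend removed these were 14 of 14 (0.13 to 0.93) and 8 of 12 (-0.28 to 0.50). As the values tested carry that trend and not every pair exceeded 0.1, the numbers were not taken as pairs. Calls gained with this block by limma were Cdh2 with TGFb in D164A/fl cells (adjusted p = 0.0421), Cdh13 in D164A/- (0.00363) and dm/- cells (0.00309) against fl/fl, Cdh2 in D164A/- against D164A/fl cells (0.0128), and Cdh3 in the F test. With the GC trend removed as well, further calls against fl/fl were Cdh1 (-1.32, adjusted p = 0.00919) and Cdh2 (1.18, 0.0288) in ΔC/fl, Cdh2 in D164A/fl (1.10, 0.0351) and Cdh13 in dm/fl cells (-1.22, 0.0382), and Cdh2 was called between dm/- and dm/fl cells (1.48, 0.00296). The main adjusted p of these 5 were 0.258, 0.418, 0.578, 0.509 and 0.22. With the numbers crossed in treated ΔC/- cells, a choice made after seeing the data, the first 6 counts were 9, 1, 4, 6, 3 and 1. Cdh3 and Cdh11 are limited by depth, with at most 44 and 28 reads per sample.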

Other observations

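Of 9 desmosomal cadherins 7 were tested, and with Wnt3a limma called 4 of these higher in D164A/fl cells, beside 4.15% of all genes called. The 4 were Dsc1, Dsg1a, Dsg1b and Dsg4, of which Dsc1 and Dsg4 are named after their values were seen. Dsg1a, a desmoglein of stratified epithelium, was at 0.641 and 0.18 CPM untreated and 36.0 and 19.4 CPM with Wnt3a, and Dsg1b went from 0.709 and 0.36 CPM to 15.4 and 8.84 CPM. Markers of myoepithelial cells summed to 908 and 3386 CPM untreated and 2674 and 3593 CPM with Wnt3a in the same cells, with overlapping replicates, and their part was not tested.

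Targets of Wnt signalling were also read under TGFb. Of 42 tests on 6 of 8 listed genes, 3 were called higher and 6 lower, with medians from -0.37 to 0.25 (all genes -0.03 to 0.03, 3.38% to 10.3% of them called per genotype). Notum, which encodes a secreted Wnt inhibitor, was called lower in fl/fl (-3.04), ΔC/fl (-4.59) and dm/fl cells (-4.10), and not in ΔC/- cells (-2.11, limma adjusted p = 0.0952).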
